A study of Mus musculus with 15 samples.

Results

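The anterior visceral endoderm (AVE) of early mouse embryos was examined by single-cell RNA sequencing (scRNA-seq) in 6 whole embryos aged E6.0 to E6.5, with 1 library per dissociated embryo. A cell was counted as AVE when it carried at least 1 unique molecular identifier (UMI, a tag that marks each captured transcript) of *Cer1*, at least 1 of *Hhex* or *Lefty1*, and at least 1 UMI of at least 2 of the visceral endoderm genes *Amn*, *Ttr* and *Apoa1*. This rule found 211 cells among the 8258 cells kept from these embryos, out of 93701 cells kept in the 15 libraries of the series. The comparison population, called other VE below, held the 1547 cells with an *Amn* UMI and none of *Cer1*. Both populations were chosen by these 6 genes, so the levels of the 6 are given as a description without a test.

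The embryos were 3 E6.0 controls, 1 late E6.0 control, 1 E6.5 control and 1 E6.5 *Mesp1* KO embryo, with the strain given as C57/BL6 in the labels and as C57BL/6J in the study's methods. Controls kept at least 1 wild-type *Mesp1* allele, being *Mesp1* Cre/+ or +/+, which the labels do not tell apart, and the KO embryo was *Mesp1* Cre/Cre, with Cre recombinase inserted into both copies of the locus. The crosses brought in the *Rosa26R* Ai14 reporter, which Cre turns on in the *Mesp1* lineage, and the *Smarcd3*-F6::eGFP transgene at *Hipp11*. By the study's methods, some control embryos were allowed to lack Ai14, but Ai14 transcripts were found in all 6 libraries used here, at 18.6 to 54.8 CPM (counts per 1000000 UMIs of the summed cells) in the cells outside both populations. The experiment number in the library names was 8 for the single KO embryo, E6.0 control 3 and the late E6.0 control, 7 for the E6.5 control and 6 for the other two E6.0 controls. *Mesp1*, a factor of early mesoderm, was first checked against the labels in the cells outside both populations. It stood at 233, 251 and 168 CPM in E6.0 controls 1, 2 and 3, at 159 CPM in the late E6.0 control and at 193 CPM in the E6.5 control. In the KO embryo a *Mesp1* UMI was found in 0 of 1389 such cells, which allows a share of cells with a UMI of up to 0.216% and sets no limit on cells that express the gene. Among AVE cells, 3 of 211 had a *Mesp1* UMI.

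The visceral endoderm is the epithelium that surrounds the epiblast and the extra-embryonic ectoderm before and during gastrulation, and it takes up and carries nutrients for the embryo. The AVE forms at its distal tip and moves to the future anterior side. There it secretes inhibitors of Nodal, Wnt and BMP signals, which confine the primitive streak to the opposite side and protect the anterior epiblast for head formation. *Cer1* encodes a secreted inhibitor of Nodal and BMP, *Lefty1* a Nodal inhibitor and *Hhex* a homeodomain transcription factor.

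AVE cells were found in every embryo. There were 53, 6 and 10 in E6.0 controls 1, 2 and 3, 27 in the late E6.0 control, 69 in the E6.5 control and 46 in the KO embryo. As a share of AVE plus other VE cells they made up 15.1% (95% exact Clopper-Pearson interval 11.6% to 19.3%), 6.19% (2.30% to 13.0%) and 15.4% (7.63% to 26.5%) in the E6.0 controls, 18.6% (12.6% to 25.9%) in the late E6.0 control and 8.66% (6.80% to 10.8%) in the E6.5 control. The share was 15.1% (11.3% to 19.7%) in the KO embryo and 12.8 ± 5.17% (SD, n = 5) over the controls, so the KO value lay inside the spread of the controls. A two-sided exact permutation test gave p = 1, and with 1 embryo against 5 the smallest p it allows is 0.167. Against the 2 controls of its own experiment the KO share was 1.87 percentage points lower, where it was 2.33 points higher than all 5.

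The 6 libraries held 13058356 to 123287233 UMIs, and the kept cells had medians of 22350 to 34415 UMIs per embryo. Pairs of libraries shared 0 to 14 cell barcodes. AVE cells were deeper than other VE cells in 4 of the 5 embryos with at least 10 cells of each kind. Their medians were 23847 against 13123 UMIs in E6.0 control 1, 43394 against 30893 in E6.0 control 3, 39973 against 30682 in the late E6.0 control and 30704 against 13700 in the E6.5 control, but 27890 against 28840 in the KO embryo. The mean difference was 9714 UMIs, with p = 0.125 in an exact two-sided test over sign changes of the 5 embryos, which cannot go below 0.0625. E6.0 control 2 had only 6 AVE cells, where 1 UMI is worth 4.22 CPM, against 0.503 CPM in the E6.5 control. It was left out of the gene tests, and its levels are given.

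Values on either side of the rule's thresholds are given once, as a description. The 28 AVE cells with a single *Cer1* UMI held *Dkk1* at 84.7 CPM, and the 103 with 10 or more at 1172 CPM. Just outside, 132 cells with *Hhex* or *Lefty1* and 2 of the 3 visceral endoderm genes but no *Cer1* held *Dkk1* at 37.1 CPM, and 165 cells with *Cer1* but neither *Hhex* nor *Lefty1* at 228 CPM. Another 339 cells had *Cer1* with *Hhex* or *Lefty1* and none of the 3 visceral endoderm genes, and these held the epiblast gene *Pou5f1* at 653 CPM, against 63.3 CPM in AVE cells. With 1 of the 3 visceral endoderm genes there were 97 such cells, with *Cer1* at 1402, *Dkk1* at 241 and *Pou5f1* at 450 CPM. The E6.5 control gave 144 of the 339 cells and 51 of the 97, and the KO embryo 138 and 41.

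Of the 3 markers, *Hhex* rather than *Lefty1* admitted most cells. *Hhex* was detected in 209 of the 211 cells, *Lefty1* in 38 and both in 36. Summed over the AVE cells of each embryo, *Cer1* (gene span chr4:82881751-82885151, mm10) stood at 908, 882 and 413 CPM in E6.0 controls 1, 2 and 3, 496 CPM in the late E6.0 control, 552 CPM in the E6.5 control and 514 CPM in the KO embryo. *Hhex* (chr19:37434841-37440731) ranged from 97.1 to 152 CPM. *Lefty1* (chr1:180935022-180938401) stood at 385, 76.0 and 22.0 CPM in E6.0 controls 1, 2 and 3, 61.8 CPM in the late E6.0 control, 0.503 CPM in the E6.5 control and 12.5 CPM in the KO embryo, so that E6.0 control 1 lay far above the rest and the E6.5 control was close to 0. Of the 38 cells with a *Lefty1* UMI, 23 came from E6.0 control 1 and 1 from the E6.5 control. In other VE, *Hhex* ranged from 3.89 to 9.19 CPM and *Lefty1* from 0 to 0.835 CPM.

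The visceral endoderm genes of the rule marked both populations. *Amn*, which encodes the partner of cubilin in protein uptake, was at 609 ± 182 CPM in AVE cells and 751 ± 144 CPM in other VE over the 4 fitted controls (mean ± SD). *Ttr*, the thyroid hormone carrier transthyretin, was at 3695 ± 1692 and 4127 ± 1518 CPM, and *Apoa1*, the main protein of high-density lipoprotein, at 3334 ± 607 and 4059 ± 1132 CPM. All 3 were detected in 188 of the 211 AVE cells. Other VE, for which the rule asks for *Amn* alone, held 293 of 1547 cells (18.9%) with neither *Ttr* nor *Apoa1*, and 446 with a single *Amn* UMI. Markers of other tissues were present in it, such as *Elf5* of extra-embryonic ectoderm at 12.0 to 248 CPM, *Pou5f1* at 73.4 to 303 CPM and the parietal endoderm list of 7 genes at a summed 678 to 4031 CPM, highest in the KO embryo. In AVE cells *Elf5* was at 0 to 4.22 CPM and *Pou5f1* at 0 to 108 CPM, and the parietal list summed to 1136 to 1494 CPM. Each comparison was repeated in stricter populations, namely AVE cells with an *Amn* UMI (197 of the 211) against other VE cells with at least 2 of the 3 visceral endoderm genes. Since both populations change there, the part of the mixed cells alone was not tested.

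**Figure D1:**
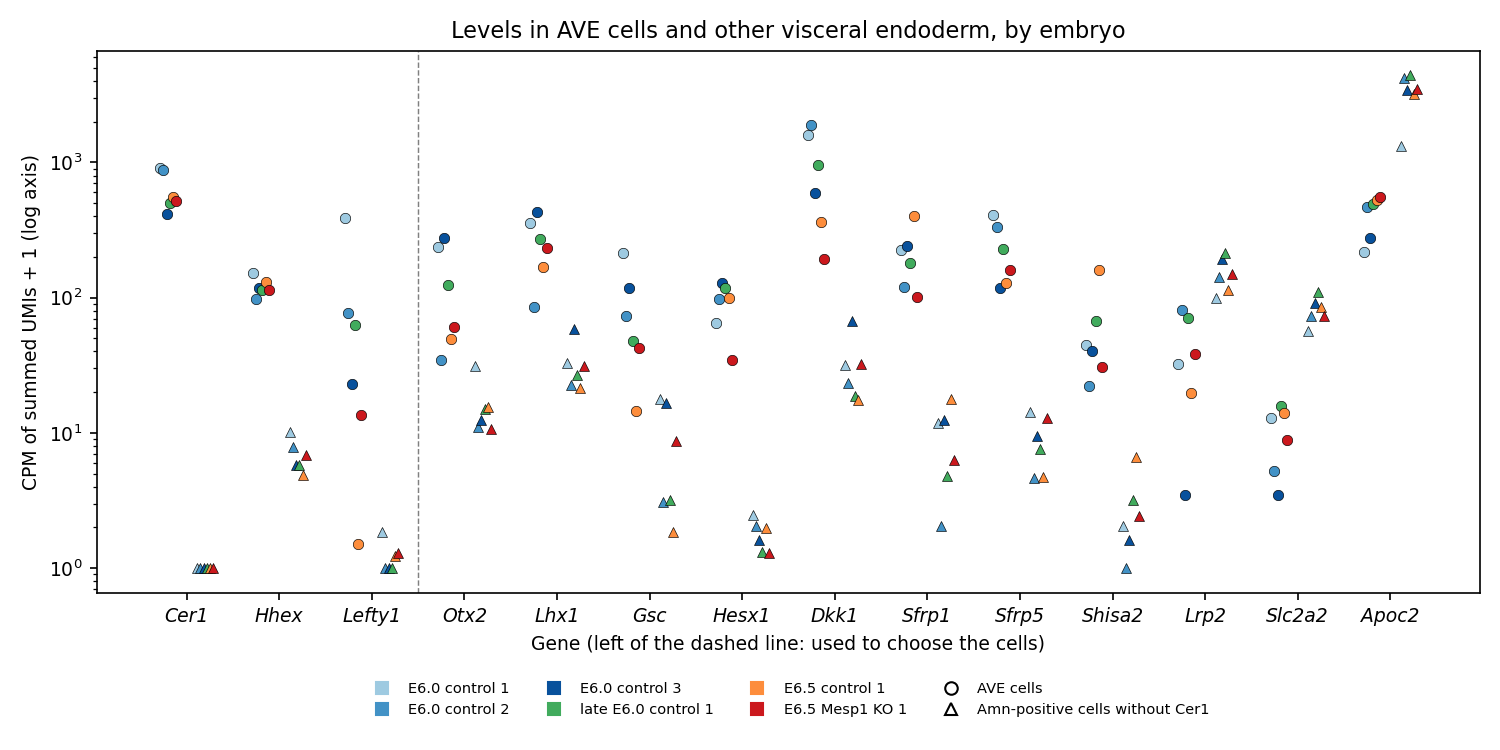
Levels of 14 genes in AVE cells (circles) and in Amn-positive cells without Cer1 (triangles), as CPM of summed UMIs plus 1 on a log axis, with 1 point per embryo and population coloured by embryo. Genes left of the dashed line chose the cells. The AVE points of Hesx1, Dkk1, Sfrp1, Sfrp5 and Shisa2 lie above all triangles of the same gene, and those of Slc2a2 and Apoc2 lie below them.

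Which genes set AVE cells apart from other VE was tested on counts summed per embryo, with the embryo as a block, in the 5 embryos with at least 10 cells of both kinds. Of 9102 genes tested, 2831 (31.1%) passed an adjusted p of 0.05 by the quasi-likelihood test of edgeR after Benjamini-Hochberg adjustment, 1405 higher in AVE cells (15.4%) and 1426 lower (15.7%). With nearly a tie between the directions, the median over all genes was -0.01 on the log2 scale. Cells thinned to 10000 UMIs gave 1498 calls among 6658 genes tested, in 4 embryos. In the stricter populations 3515 of 8839 genes passed, 1754 higher and 1761 lower. All fold changes below are log2 values of AVE minus other VE. Each count of a gene group is to be read against the share of all genes in the same populations.

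Transcription factors of the AVE were higher as a group. Of 12 on the list, 9 passed the test, all higher in AVE cells, and the median of the 12 was 1.5. *Hesx1*, a homeobox repressor needed for forebrain and pituitary development, stood at 63.8, 97.1 and 127 CPM in E6.0 controls 1, 2 and 3, 118 CPM in the late E6.0 control, 98.1 CPM in the E6.5 control and 33.5 CPM in the KO embryo. Other VE held it at only 0.288 to 1.46 CPM, and the groups did not overlap (log2 fold change 6.59 ± 0.25 SE, edgeR adjusted p = 1.5e-09). In other VE, where 1 UMI is worth 0.0763 to 0.602 CPM, *Hesx1* was close to 0. It could be tested through its counts in AVE cells, and the size of the fold change depends on the prior count. *Hesx1* was detected in 101 of 211 AVE cells, in 22 of 1547 other VE cells and in 4.89% of the remaining cells.

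*Otx2*, the homeobox factor required in visceral endoderm for AVE movement and head formation, stood at 235, 33.8 and 274 CPM in E6.0 controls 1, 2 and 3, 124 CPM in the late E6.0 control, 48.3 CPM in the E6.5 control and 60.1 CPM in the KO embryo. Every AVE value lay above the 9.65 to 30.1 CPM of other VE (log2 fold change 2.86 ± 0.26 SE, edgeR adjusted p = 3.6e-06). The remaining cells of these embryos, of which 85.7% had a *Pou5f1* UMI, also held *Otx2*, at 59.8 to 155 CPM. They were above AVE cells in E6.0 control 2 (88.8 against 33.8 CPM), the E6.5 control (59.8 against 48.3 CPM) and the KO embryo (89.9 against 60.1 CPM). *Lhx1*, a LIM homeobox factor of anterior endoderm and mesendoderm, ranged from 84.4 to 432 CPM in AVE cells and from 20.4 to 57.2 CPM in other VE (log2 fold change 3.15 ± 0.12 SE, edgeR adjusted p = 1.5e-09). *Gsc*, the homeobox gene goosecoid, stood at 214, 71.8 and 117 CPM in E6.0 controls 1, 2 and 3, 47.1 CPM in the late E6.0 control, 13.6 CPM in the E6.5 control and 41.3 CPM in the KO embryo, with 0.839 to 16.7 CPM in other VE (log2 fold change 3.35 ± 0.23 SE, edgeR adjusted p = 2.9e-07). The ranges of *Gsc* overlapped between embryos, but within each of the 5 fitted embryos the AVE cells were higher than other VE. The remaining cells held *Lhx1* at 76.1 to 190 CPM and *Gsc* at 6.89 to 68.7 CPM. They were above AVE cells for *Lhx1* in E6.0 control 2 (125 against 84.4 CPM) and for *Gsc* in the KO embryo (68.7 against 41.3 CPM).

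The forkhead factors of endoderm were raised as well. *Foxa2* was at 86.5 ± 25.4 CPM in AVE cells and 34.7 ± 7.72 CPM in other VE over the 4 fitted controls (mean ± SD; log2 fold change 1.31 ± 0.13 SE, edgeR adjusted p = 7.9e-06). For *Foxa1* the fold change was 2.27 ± 0.22 (SE), at 0 to 36.6 CPM in AVE cells. *Sox17*, *Prdm1* and *Eomes* rose by 1.36, 1.64 and 0.88, with edgeR adjusted p of 1.4e-05, 0.00018 and 0.00620. *Sox17* is an endoderm factor, *Prdm1* encodes the repressor BLIMP1 and *Eomes* a T-box factor that acts in visceral endoderm and the streak. The remaining cells held *Eomes* at 108 to 226 CPM, above AVE cells in every embryo but E6.0 control 3 (168 against 200 CPM). The general visceral endoderm factors *Gata4* and *Gata6* did not pass the test, with fold changes of 0.16 and 0.47, but *Gata6* passed as higher in the stricter populations.

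Inhibitors of Nodal, Wnt and BMP signals were mostly higher in AVE cells. Most on the list are secreted, while *Shisa2* and *Bambi* act in the membranes of the cell that makes them. Of 12 on the list, 9 could be tested, of which 6 were higher in AVE cells and 1 lower, and the median of the 9 was 1.80. In the stricter populations all 7 that could be tested were higher, with a median of 4.15, but *Fst*, the 1 lower gene, was not among the 7. *Dkk1* (chr19:30545876-30549496), which blocks the Wnt co-receptor LRP6, stood at 1594, 1879 and 596 CPM in E6.0 controls 1, 2 and 3, 959 CPM in the late E6.0 control, 364 CPM in the E6.5 control and 193 CPM in the KO embryo. Other VE held 16.5 to 66.2 CPM, and no AVE value fell within that range (log2 fold change 4.34 ± 0.39 SE, edgeR adjusted p = 3.7e-06). It was detected in 156 of 211 AVE cells (73.9%) and in 19.4% of other VE and 22.7% of the remaining cells.

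Both secreted frizzled-related proteins, which bind Wnt ligands, rose by a similar amount. *Sfrp5* (chr19:42197971-42202252) stood at 406, 329 and 117 CPM in E6.0 controls 1, 2 and 3, 228 CPM in the late E6.0 control, 127 CPM in the E6.5 control and 159.9 CPM in the KO embryo, against 3.67 to 13.2 CPM in other VE (log2 fold change 4.59 ± 0.20 SE, edgeR adjusted p = 4.1e-09). *Sfrp1* stood at 226, 118 and 242 CPM in E6.0 controls 1, 2 and 3, 180.4 CPM in the late E6.0 control, 404 CPM in the E6.5 control and 99.8 CPM in the KO embryo, against 1.05 to 16.9 CPM (log2 fold change 4.56 ± 0.15 SE, edgeR adjusted p = 1.3e-09). Neither gene overlapped between the populations. The order of embryos differed: *Sfrp5* was highest in E6.0 control 1 and *Sfrp1* in the E6.5 control. At least 1 of *Dkk1*, *Sfrp1* and *Sfrp5* was detected in 205 of the 211 AVE cells, and all 3 in 109. In other VE, 441 of 1547 cells had at least 1 of them and 27 had all 3.

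*Shisa2*, which retains Wnt and FGF receptors inside the cell, ranged from 21.1 to 160.0 CPM in AVE cells and from 0 to 5.57 CPM in other VE (log2 fold change 4.85 ± 0.19 SE, edgeR adjusted p = 1.5e-09). *Bambi*, a decoy receptor of TGF-beta and BMP signals, and *Fstl1* rose by 1.80 and 0.79. *Fst*, the activin-binding protein follistatin, went the other way. It stood at 0 to 7.98 CPM in AVE cells and at 2.53 to 71.2 CPM in other VE, lower in each fitted embryo (log2 fold change -3.84 ± 0.46 SE, edgeR adjusted p = 4e-05). The remaining cells held *Fst* at 32.3 to 168 CPM, and in the stricter populations it was too low to be tested. *Nog* and *Bmper* did not pass the test, and *Lefty2*, *Chrd* and *Fstl3* were too low to be tested.

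**Figure D2:**
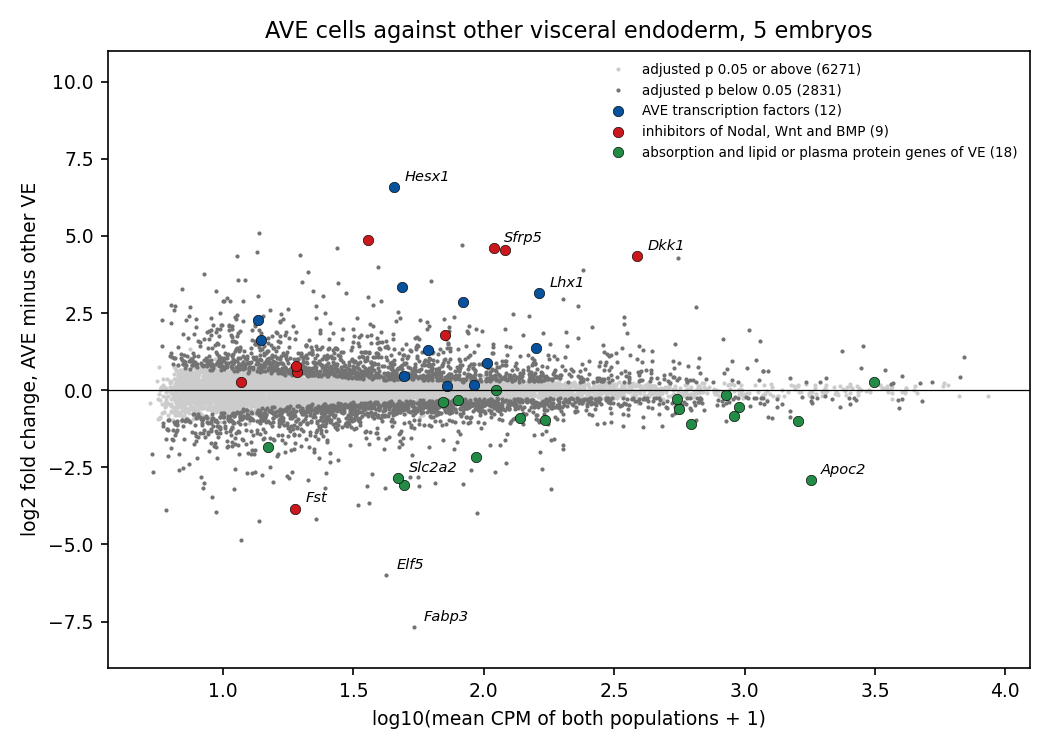
Log2 fold change of AVE against other VE cells (vertical axis) over the log10 mean CPM plus 1 of both populations (horizontal axis), 1 point per gene tested (9102) in 5 embryos. Coloured points are the genes of 3 groups, and dark grey marks the 2831 genes past an adjusted p of 0.05: most transcription factors and inhibitors of the AVE lie above 0 and most absorptive genes below it.

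Genes of the Nodal pathway itself were partly raised. Of 12, 10 were tested, 4 were higher, none was lower and the median was 0.20. Of the same 10, in the stricter populations, 5 were higher and *Furin*, a protease that matures Nodal, was lower, with a median of 0.57. *Nodal*, the ligand, stood at 96.6, 12.7 and 115 CPM in E6.0 controls 1, 2 and 3, 28.4 CPM in the late E6.0 control, 30.2 CPM in the E6.5 control and 31.2 CPM in the KO embryo, against 4.72 to 20.2 CPM in other VE (log2 fold change 1.56 ± 0.25 SE, edgeR adjusted p = 0.00038). Its EGF-CFC co-receptor *Cfc1* ranged from 147 to 363 CPM in AVE cells and reached at most 106 CPM in other VE (log2 fold change 1.79 ± 0.15 SE, edgeR adjusted p = 2.2e-06). *Foxh1*, the forkhead partner of SMAD2, rose by 1.42 ± 0.12 (SE) and the type I receptor *Acvr1b* by 0.85 ± 0.23. The other 6, among them *Smad2*, *Smad4* and the type II receptors *Acvr2a* and *Acvr2b*, did not pass. In thinned cells *Nodal* no longer passed (0.78, edgeR adjusted p = 0.0702), and *Acvr1b* did not pass by DESeq2.

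Of 11 BMP, Wnt and FGF ligands, 5 were abundant enough to test and all passed, 3 higher and 2 lower. *Bmp2* stood at 172, 249 and 80.6 CPM in E6.0 controls 1, 2 and 3, 142 CPM in the late E6.0 control, 168 CPM in the E6.5 control and 105 CPM in the KO embryo, against 24.6 to 51.1 CPM in other VE (log2 fold change 1.87 ± 0.19 SE, edgeR adjusted p = 1e-05). *Fgf5* and *Fgf8*, ligands best known from the epiblast and the streak, rose by 2.46 ± 0.12 and 1.99 ± 0.23 (SE). *Fgf5* stood at 84.0 to 409 CPM in AVE cells, 18.8 to 63.0 CPM in other VE and 61.3 to 167 CPM in the remaining cells. For *Fgf5*, AVE cells were above the remaining cells of their own embryo in all 6 embryos, but only just in the KO embryo (152 against 148 CPM). For *Fgf8* they were above them only in E6.0 controls 1 and 3 (461 against 310 and 283 against 117 CPM) and below them in the other embryos. *Pou5f1* stood at 0 to 108 CPM in AVE cells and 1019 to 1568 CPM in the remaining cells. *Bmp4*, which is made by extra-embryonic ectoderm, was lower in AVE cells at 0 to 12.7 against 8.42 to 148 CPM (log2 fold change -3.16 ± 0.39 SE, edgeR adjusted p = 5.7e-05), and *Wnt3* fell by 1.16. In the stricter populations *Bmp4* was too low to be tested and *Wnt3* was still lower. In other VE the levels of *Bmp4* were highest in E6.0 control 1, where *Elf5* was highest too, at 248 CPM.

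Genes of cell migration and planar polarity did not move together. Of 10 tested, 3 were higher and 4 lower, with a median of -0.16. *Flrt3*, a transmembrane protein of cell adhesion that the AVE is known to express, rose most (log2 fold change 1.65 ± 0.13 SE, edgeR adjusted p = 8.9e-07), at 54.9 to 107 CPM in AVE cells against 13.6 to 36.7 CPM. *Vangl2*, of the planar polarity pathway, and *Cdh1*, E-cadherin, rose by 0.79 and 0.60. The actin regulators *Rac1* and *Nckap1* fell by 0.46 and 0.52, and the Wnt transducer *Dvl1* by 1.27. The call of *Rac1* was lost without the KO embryo or the late E6.0 control (edgeR adjusted p = 0.0719 and 0.0765), and *Rac1* was 385 CPM in the E6.5 control against 56.2 to 124 CPM elsewhere in AVE cells. That library was high throughout, with 405 CPM in other VE and 408 CPM in the remaining cells.

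The absorptive and secretory programme of visceral endoderm was lower in AVE cells. Of 18 genes on this list, 13 were lower, none was higher and the median was -0.88. The summed level of the 18 was 7962 to 10280.4 CPM in AVE cells and 9666 to 18469.5 CPM in other VE. It was lower in AVE cells in 5 of the 6 embryos. In E6.0 control 1 it was higher, at 10016 against 9666 CPM. In the stricter populations 17 of the 18 were lower. The remaining cells held 569 to 815 CPM, below every AVE and other VE value.

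Endocytic receptors fell by different amounts. *Lrp2*, which encodes megalin, stood at 31.1, 80.2 and 2.44 CPM in E6.0 controls 1, 2 and 3, 69.6 CPM in the late E6.0 control, 18.6 CPM in the E6.5 control and 37.4 CPM in the KO embryo, against 98.9 to 212 CPM in other VE (log2 fold change -2.16 ± 0.25 SE, edgeR adjusted p = 3e-05). *Cubn*, which encodes cubilin, ranged from 265 to 638 CPM in AVE cells and from 570.1 to 1191 CPM in other VE (log2 fold change -1.09 ± 0.10 SE, edgeR adjusted p = 4.9e-06). Their adaptor *Dab2* did not pass the test (-0.16 ± 0.17 SE).

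Among apolipoproteins, *Apoc2* and *Apoa2* differed most. *Apoc2*, a cofactor of lipoprotein lipase, stood at 218, 464 and 276 CPM in E6.0 controls 1, 2 and 3, 488 CPM in the late E6.0 control, 527 CPM in the E6.5 control and 554 CPM in the KO embryo, all below the 1326 to 4406 CPM of other VE (log2 fold change -2.91 ± 0.14 SE, edgeR adjusted p = 8.5e-09). *Apoa2* fell by 3.06, *Apoa4* by 0.97, *Apom* by 0.85 and *Apob* by 0.54, while *Apoe* did not pass the test (0.25). *Mttp*, which loads lipid onto apolipoprotein B, fell by 0.91. *Slc2a2*, the glucose transporter GLUT2, ranged from 2.44 to 14.7 CPM in AVE cells and from 55.7 to 109 CPM in other VE, with no overlap (log2 fold change -2.85 ± 0.19 SE, edgeR adjusted p = 2.8e-07). The plasma carriers *Trf* (transferrin) and *Rbp4* (retinol-binding protein) fell by 1.85 and 0.99. *Apob*, *Rbp4*, *Afp* (alpha-fetoprotein) and the protease gene *Ctsz* passed as lower but were higher in AVE cells of E6.0 control 1, *Afp* at 644 against 419 CPM and *Ctsz* at 580.1 against 540.5 CPM. *Afp* was also higher in AVE cells of E6.0 control 2, at 1136 against 418 CPM.

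**Figure D3:**
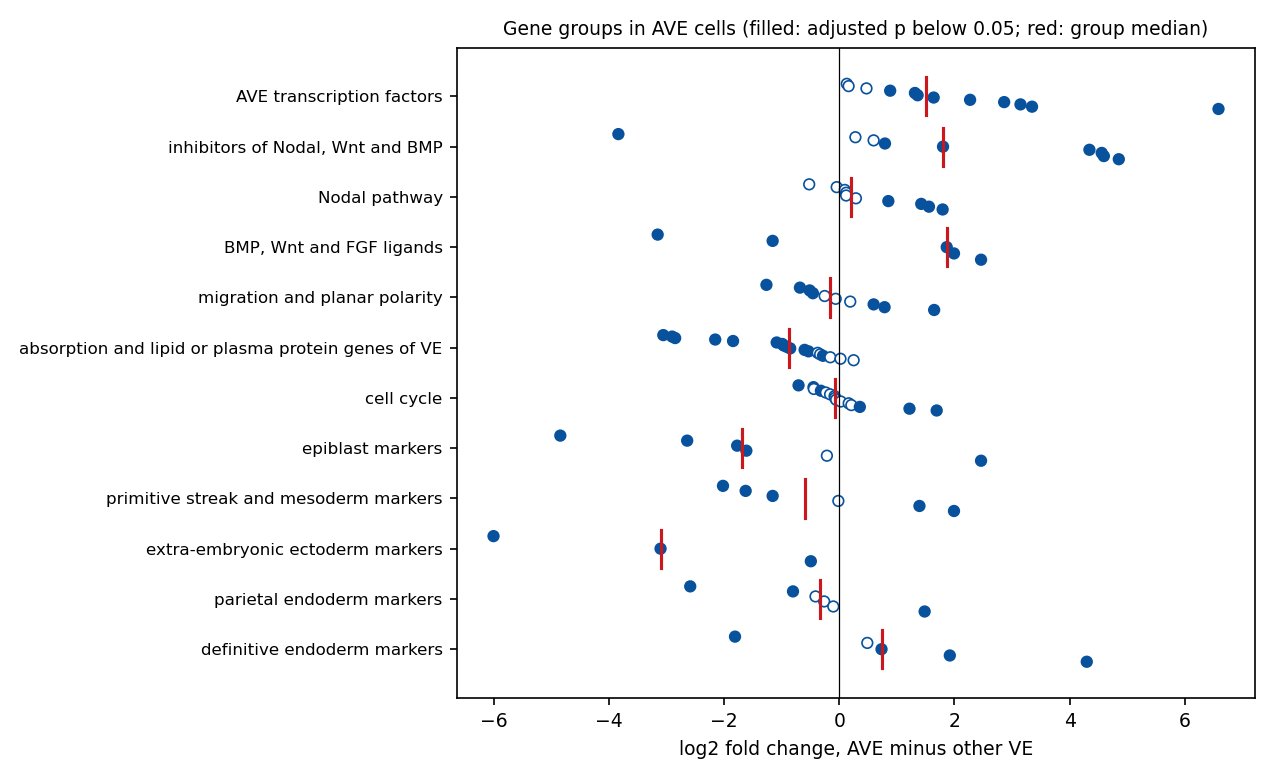
Log2 fold change of AVE against other VE cells (horizontal axis) for each tested gene of 12 gene groups (vertical axis), with 1 circle per gene, filled where the adjusted p is below 0.05, and a red bar at the group median. The transcription factors and inhibitors have medians above 1, and the absorptive genes a median below 0.

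Cell cycle genes were divided between both directions. Of 15, 3 were higher, 3 lower and 9 did not pass, with a median of -0.07. In the stricter populations 5 of 14 were higher and 1 lower, with a median of 0.14. The CDK inhibitor *Cdkn1c* (p57) rose by 1.69 ± 0.25 (SE, adjusted p = 0.00022) and *Cdkn1a* (p21) by 1.22 ± 0.29. The mitotic topoisomerase *Top2a* was also slightly higher (0.36), and the S-phase genes *Ccne1* and *Mcm2* were lower (-0.71 and -0.45). *Cdkn1c* was higher in AVE cells in 4 of the 5 embryos and lower in E6.0 control 3, at 48.8 against 60.2 CPM. The call of *Mcm2* was lost in the stricter populations (-0.22, adjusted p = 0.146).

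Markers of other tissues moved in both directions. Of 7 markers of extra-embryonic ectoderm, 3 could be tested and all 3 passed: *Elf5* fell by 6.01, *Cdx2* by 3.11 and *Rhox5* by 0.50. *Elf5* and *Cdx2* were low in AVE cells, at 0 to 4.22 and 0.980 to 12.5 CPM. They could be tested through their counts in other VE, for which the rule asks for *Amn* alone. Of the 4 too low to test, *Ascl2* was higher in AVE cells of the E6.0 and late E6.0 controls and lower in both E6.5 embryos. *Rhox5* was abundant in AVE cells nevertheless, at 596 to 777 CPM. Of 6 epiblast genes tested, 4 were lower and *Fgf5* was higher. In the stricter populations 0 of 4 tested were lower. Of 6 genes of the primitive streak and mesoderm, 3 were lower and 2 higher, and in the stricter populations 1 of 5 was lower and 2 were higher. The difference of *Pou5f1* (log2 fold change -1.77 ± 0.38 SE, edgeR adjusted p = 0.00336) turned to 0.13 (adjusted p = 0.852) in the stricter populations. *Pou5f1* was detected in 19.4% of AVE, 17.5% of other VE and 85.7% of the remaining cells. Of 6 parietal endoderm genes tested, 2 were lower and 1 higher. *Lama1* was lower (-2.59) and *Srgn*, the proteoglycan serglycin, higher (1.48), with AVE levels of 10.9 to 26.9 and 201 to 502 CPM.

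Of the genes that mark definitive endoderm at later stages, 3 of 5 were higher in AVE cells. *Trh*, the precursor of thyrotropin-releasing hormone, stood at 261, 71.8 and 423 CPM in E6.0 controls 1, 2 and 3, 987 CPM in the late E6.0 control, 2234 CPM in the E6.5 control and 1372 CPM in the KO embryo, against 9.96 to 125 CPM in other VE (log2 fold change 4.30 ± 0.26 SE, edgeR adjusted p = 1e-07). AVE cells were higher in each fitted embryo, while E6.0 control 2 lay below the highest other VE value. The remaining cells held *Trh* at 89.2 to 420 CPM, above the AVE cells of the same embryo only in E6.0 control 2. *Krt19*, a keratin, ranged from 46.4 to 203 CPM in AVE cells and 17.4 to 51.9 CPM in other VE (1.92). *Emb*, an adhesion glycoprotein, was already abundant in other VE at 1557 to 2345 CPM and rose to 2621 to 4361 CPM (0.73). *Cldn4*, a tight junction claudin, stood at 0 to 24.1 CPM in AVE cells and 2.84 to 80.6 CPM in other VE (log2 fold change -1.81 ± 0.47 SE, edgeR adjusted p = 0.0108), but did not pass by DESeq2 or without the embryo as a block, and was too low to be tested in the stricter populations or without the E6.5 control.

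The 10 genes with the largest increase that held in every fitted embryo and reached 10 CPM were *Hesx1*, *Sfrp5*, *Sfrp1* and *Shisa2*, described above, and *Tph1*, *Nptx2*, *Cd8a*, *Fzd8*, *Ak8* and *Gckr*. *Tph1*, tryptophan hydroxylase of serotonin synthesis, ranged from 5.53 to 59.9 CPM in AVE cells and from 0 to 1.04 CPM in other VE (log2 fold change 5.08 ± 0.35 SE, edgeR adjusted p = 3.4e-07). *Nptx2*, neuronal pentraxin 2, stood at 105, 59.1 and 36.6 CPM in E6.0 controls 1, 2 and 3, 154 CPM in the late E6.0 control, 293 CPM in the E6.5 control and 199.6 CPM in the KO embryo, against 0.602 to 11.7 CPM (log2 fold change 4.71 ± 0.18 SE, edgeR adjusted p = 1.5e-09). *Cd8a*, better known as a T cell co-receptor, stood at 80.6, 29.6 and 29.3 CPM in E6.0 controls 1, 2 and 3, 48.0 CPM in the late E6.0 control, 60.4 CPM in the E6.5 control and 34.3 CPM in the KO embryo, against 0.524 to 3.01 CPM (log2 fold change 4.60 ± 0.26 SE, edgeR adjusted p = 5.8e-08). Both genes were separated between the populations in all 6 embryos. The Wnt receptor *Fzd8* rose by 4.47, the adenylate kinase *Ak8* by 4.39 and the glucokinase regulator *Gckr* by 4.36. In these 3, AVE levels did not exceed 76.0 CPM. *Hesx1*, *Tph1*, *Fzd8*, *Ak8* and *Gckr* stood at 0 to 3.03 CPM in other VE. They could be tested through their counts in AVE cells, and the sizes of their fold changes depend on the prior count.

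The 10 largest decreases were led by *Fabp3*, a fatty acid-binding protein, at 0 to 1.01 CPM in AVE cells and 27.5 to 265 CPM in other VE (log2 fold change -7.68 ± 0.30 SE, edgeR adjusted p = 1.5e-09). With AVE cells of at least 2 embryos at 0, the fitted values of *Fabp3*, *Fabp1*, *Elf5*, *Pou3f1*, *Fst*, *S100a6* and *Gm2373* depend on the prior count. *Fabp3*, *Elf5*, *Pou3f1*, *Fst* and *S100a6* were too low to be tested in the stricter populations. *Fabp1*, the liver form, followed the same direction (-4.24, at 0 to 3.90 against 6.26 to 34.7 CPM). *Elf5* and the POU factor *Pou3f1* (-4.85), genes of extra-embryonic and embryonic ectoderm, were among them, as was *Fst*. They also held the calcium-binding protein *S100a6* (-4.16), the galectin *Lgals2* (-3.98), the water channel *Aqp8* (-3.66) and *Gm2373* (-3.93). *Lgals2* stood at 4.88 to 14.7 CPM in AVE cells and 49.1 to 271 CPM in other VE, and *Aqp8* at 0 to 7.98 and 43.3 to 113 CPM, neither with any overlap.

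AVE cells varied among themselves. When the cells of each embryo were divided by *Cer1* into those with 1 to 9 UMIs (108 cells) and those with 10 or more (103 cells), *Hesx1*, *Sfrp5*, *Sfrp1* and *Dkk1* were higher in the latter in each of the 5 embryos with at least 10 AVE cells. *Hesx1* stood at 8.14 CPM in the cells with fewer and 117 CPM in those with more *Cer1* UMIs in E6.0 control 1, at 19.2 and 202 CPM in the late E6.0 control, at 16.6 and 166 CPM in the E6.5 control and at 7.36 and 79.2 CPM in the KO embryo. *Sfrp5* went from 91.4 to 339.8 CPM and *Dkk1* from 335 to 1172 CPM over all AVE cells. By embryo the step of *Dkk1* differed. It went from 664 to 2488 CPM in E6.0 control 1, 303 to 1519 CPM in the late E6.0 control and 93.2 to 366 CPM in the KO embryo. In E6.0 control 3 it went from 557 to 676 CPM and in the E6.5 control from 291 to 425 CPM. *Lhx1* and *Gsc* were lower in the latter in E6.0 control 1 and higher in the other 4 embryos: in E6.0 control 1 *Gsc* was 255 CPM with fewer and 174 CPM with more *Cer1* UMIs, and in the KO embryo 27.0 and 66.4 CPM. *Pou5f1* was higher with more *Cer1* UMIs in the E6.5 control (43.1 and 99.7 CPM) and the KO embryo (61.3 and 191 CPM). It was lower with more in E6.0 control 1 (168 and 3.13 CPM) and the late E6.0 control (2.13 and 0 CPM). The median depth of the cells was 30874 and 30172 UMIs with fewer and with more. This division uses a gene of the rule and was chosen after values had been seen, E6.0 control 3 has only 3 cells with 10 or more, and no test was made.

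**Figure D4:**
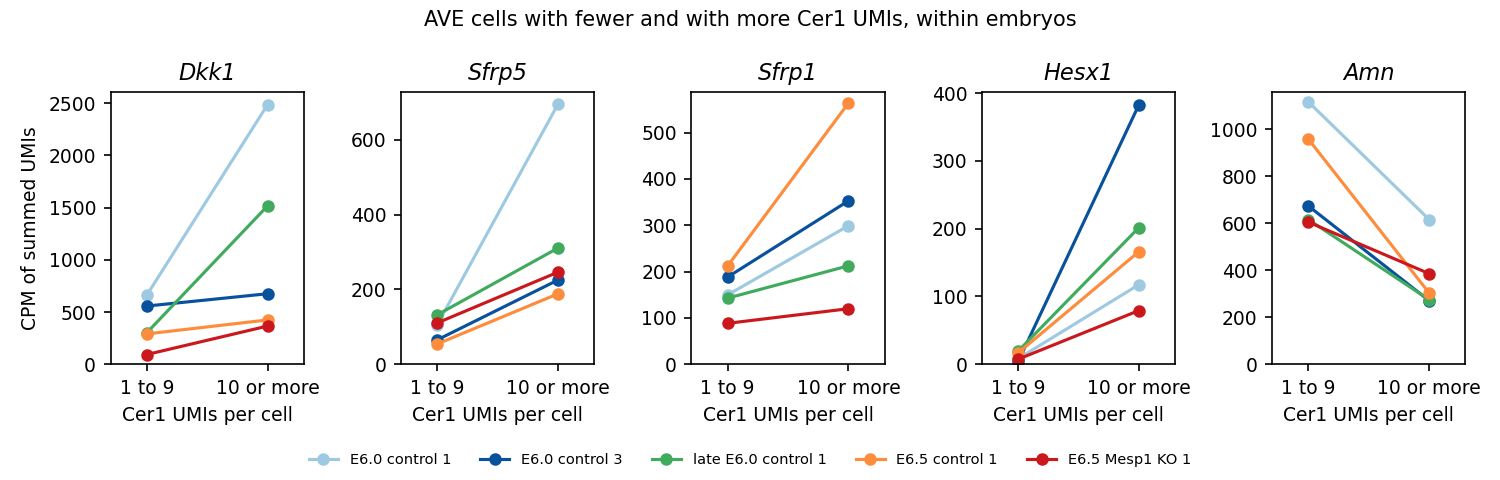
CPM of summed UMIs (vertical axes) of 5 genes in AVE cells with 1 to 9 and with 10 or more Cer1 UMIs (horizontal axes), with 1 line per embryo for the 5 embryos with at least 3 cells on each side. Sfrp5, Sfrp1 and Hesx1 are higher in the cells with more Cer1 UMIs in each embryo, and Amn, a gene of the rule, is shown as a description only.

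The 23 AVE cells of E6.0 control 1 with a *Lefty1* UMI differed from its other 30 AVE cells. *Otx2* stood at 385 CPM with and 124 CPM without *Lefty1*, *Lhx1* at 552 and 205 CPM and *Gsc* at 334 and 125 CPM. *Dkk1* was at 1531 and 1639.7 CPM there, but at 2715 and 648 CPM in the late E6.0 control. The other embryos had 1 to 5 cells with *Lefty1*. *Otx2*, *Lhx1* and *Gsc* were higher with *Lefty1* in 4 of these 5 embryos as well, and had no UMI in the single such cell of the E6.5 control. *Lefty1* is a gene of the rule, and these are values without a test.

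By labelled age, *Dkk1*, *Gsc*, *Fgf5* and *Lefty1* were lower in AVE cells of the 2 E6.5 embryos than in those of the 4 younger ones. *Dkk1* stood at 364 and 193 CPM at E6.5, against 596 to 1879 CPM in the younger embryos, and *Gsc* at 13.6 and 41.3 CPM against 47.1 to 214. *Fgf5* stood at 84.0 and 152 CPM against 195 to 409 CPM, and *Lefty1*, a gene of the rule, at 0.503 and 12.5 CPM against 22.0 to 385 CPM. The groups did not overlap in these genes. *Otx2* overlapped, because E6.0 control 2, with its 6 cells, had 33.8 CPM. *Hesx1*, *Lhx1*, *Sfrp5*, *Sfrp1* and *Shisa2* overlapped as well. *Sfrp1* and *Shisa2* were highest in the E6.5 control, at 404 and 160.0 CPM. The inhibitor gene *Fstl1* was higher in both E6.5 embryos, at 26.2 and 29.6 CPM against 12.7 to 24.4 CPM.

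The opposite order was found for *Cdkn1c*, at 521 and 662 CPM at E6.5, 440.2 CPM in the late E6.0 control and 48.8 to 144 CPM at E6.0. *Trh* likewise stood at 2234 and 1372 CPM at E6.5, 987 CPM in the late E6.0 control and 71.8 to 423 CPM at E6.0. For both genes the late E6.0 control lay between the younger and the older embryos. The same order was found for *Cdkn1c* in other VE, at 112 and 139 CPM at E6.5, 104 CPM in the late E6.0 control and 28.3 to 73.9 CPM at E6.0. The remaining cells held 66.4 and 67.5 CPM at E6.5, 66.7 CPM in the late E6.0 control and 15.4 to 35.2 CPM at E6.0. *Trh* in other VE stood at 125 and 44.2 CPM at E6.5 and 9.96 to 37.4 CPM in the younger embryos. In AVE cells *Emb*, *Cldn4* and *Cpm*, also definitive endoderm genes, were higher in both E6.5 embryos than in all 4 younger ones. They stood at 4361 and 3887, 24.1 and 7.8, and 66.9 and 40.6 CPM, against at most 3859, 1.96 and 12.2 CPM. *Krt19*, the remaining gene of that list, overlapped. *Cpm* was above other VE in both E6.5 embryos (18.8 and 16.6 CPM) and below it in each younger one. It did not pass the test of AVE against other VE. Of the 123 measured genes of the lists, 9 (7.32%) were lower in both E6.5 embryos than in all 4 younger ones and 15 (12.2%) were higher, where 4.19% and 6.27% of the 9102 tested genes were. The sets are not alike, since the 123 include genes too low to be tested, among them *Wnt5a*, *Efna1* and *Nanog* of the 15. There are 2 E6.5 embryos from 2 experiments, 1 of them the KO embryo, so age, experiment and genotype cannot be told apart, and no test was made.

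**Figure D5:**
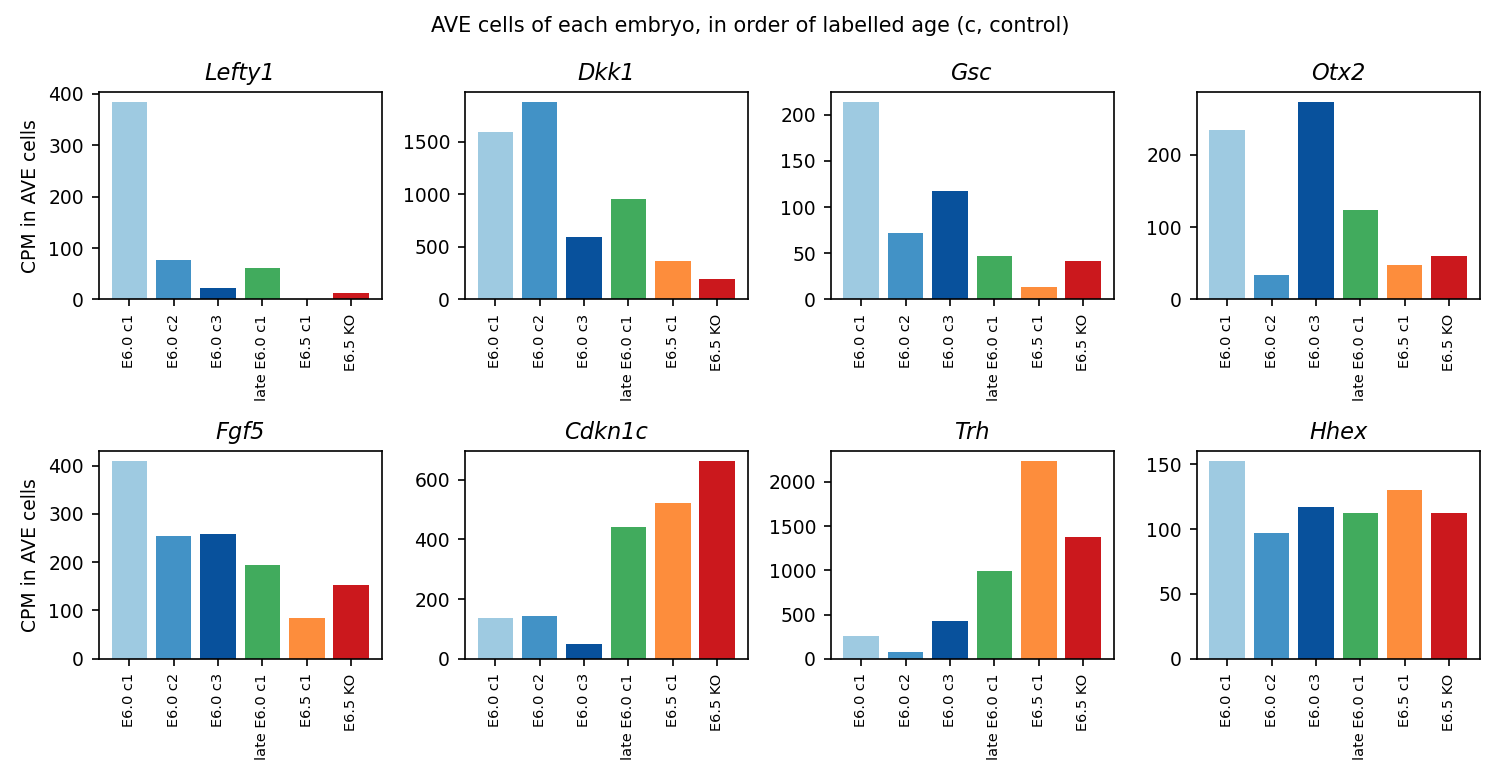
CPM of 8 genes in the AVE cells of each of the 6 embryos (bars, axes starting at 0), in order of labelled age. Dkk1, Gsc and Fgf5 are lower and Cdkn1c and Trh higher in both E6.5 embryos than in the 4 younger ones. Hhex, a gene of the rule, is shown as a description only.

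Whether AVE cells of the *Mesp1* KO embryo differed from those of controls was tested on the same summed counts, 1 KO embryo against 4 controls. Of 9378 genes, 0 (0%) passed an adjusted p of 0.05 by edgeR's quasi-likelihood test, and 234 had an unadjusted p below 0.05. DESeq2 called 0 as well, with 127 below the unadjusted threshold. A p that misses the threshold does not show that the genotypes were alike. In the KO embryo *Lhx1* and *Sfrp5* stood at 232 and 159.9 CPM, between the lowest and the highest control in each case. The KO embryo is E6.5 and the fitted controls other than the E6.5 control are younger, so genotype and age cannot be told apart. On the lists of transcription factors and inhibitors, *Prdm1*, *Gata6*, *Fstl1*, *Bmper* and *Bambi* were highest in AVE cells of the KO embryo. They stood at 30.4, 85.8, 29.6, 22.6 and 148 CPM there. *Dkk1*, *Hesx1* and *Sfrp1* were lowest in the KO embryo. The share of all genes with either order was not counted, so neither is read as a result about these genes. *Dkk1* stood at 193 CPM in the KO embryo, 364 CPM in the E6.5 control and 596 to 1879 CPM in the younger controls. In the same order *Hesx1* stood at 33.5, 98.1 and 63.8 to 127 CPM and *Sfrp1* at 99.8, 404 and 118 to 242 CPM. Their log2 differences of KO minus control were -2.16 ± 0.74, -1.59 ± 0.51 and -1.39 ± 0.47 (SE), each with an edgeR adjusted p of 0.999. For *Otx2* the difference was -1.46 ± 0.83 and for *Lhx1* -0.39 ± 0.49.

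Without a filter on low counts 3 genes passed, *Rps15a-ps8*, *Sec61g* and *Stmn2*, and without the E6.5 control 3 genes, *Rps15a-ps8*, *Gm15487* and *Ifitm1*. These were named after their values were seen. *Rps15a-ps8*, a pseudogene of a ribosomal protein, stood at 120.1 CPM in AVE cells of the KO embryo and at 0 to 5.88 CPM in controls. It was at 114 CPM in other VE and 133 CPM in the remaining cells of the same KO library, and reads of a pseudogene can be shared with its parent gene. *Sec61g*, a subunit of the protein translocation channel, was likewise at 42.9, 51.7 and 38.6 CPM in the 3 populations of the KO library and at 3.02 to 8.82 CPM in AVE cells of controls. In AVE cells *Gm15487* and *Ifitm1* stood at 15.6 and 60.9 CPM in the E6.5 control and 15.6 and 122 CPM in the KO embryo, against 295 to 428 and 5.59 to 9.80 CPM in the 4 younger embryos. *Gm15487* was also at 16.3 and 19.2 CPM in other VE of the E6.5 control and the KO embryo, against 184 to 366 CPM in the younger ones.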

How the data were processed

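Whole embryos were dissociated and profiled with a 5′ droplet kit for scRNA-seq. The authors used Cell Ranger 3.0.2 and the mm10 build, extended by both reporter sequences (eGFP, Ai14), and deposited raw UMI counts per gene and cell barcode. Here cells were kept that had 200 to 7000 genes, under 50000 UMIs and a mitochondrial share under 10%. The members, the gene lists and the tests were chosen with earlier results of these data known.

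Counts were summed per embryo and population where there were at least 10 cells of each. Low genes were removed by filterByExpr and TMM factors were computed. The quasi-likelihood test of edgeR 4.0.16 (R 4.3.3) was used at a Benjamini-Hochberg adjusted p of 0.05. Embryos, not cells, are the replicates, and p-values measure the spread between these embryos. AVE and other VE were compared with the embryo as a block, and the 6 genes of the rule were left out of the calls. Genotypes were compared without a covariate, and the KO embryo is assumed to vary like the controls. Shares and depths were compared by exact permutation tests. Genes named are the lists, written in groups, and the 10 largest changes per direction that held in every fitted embryo at 10 CPM or more. Some genes that these rules select are not reported here, though the counts include them. *Rps15a-ps8*, *Sec61g*, *Stmn2*, *Gm15487* and *Ifitm1* were chosen after their values were seen, and so was the division of AVE cells by *Cer1* or *Lefty1*.

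Libraries held 13058356 to 123287233 UMIs. Intervals are 95% exact Clopper-Pearson intervals, a count of 0 allows 3 counts, and both cover counting error only. Gene spans are those of RefSeq on GRCm38.p6, the build called mm10. The code was tested on simulated data with known changes. Alternatives were DESeq2 1.42.0, no filter, no block, each embryo left out, control embryos only, stricter rules for both populations, epiblast-dominated cells left out, thinning to 10000 UMIs, the highest doublet scores left out (0.8% of cells per 1000 barcodes), at most 6300 genes, 20 cells per embryo, and, added after seeing the data, 6 *Amn* UMIs, no upper limits and 5 cells per embryo. Doublets were kept in the main analysis: the scores marked 201 cells, 4 of them AVE.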

Additional observations from a re-analysis of the deposited data

Results flagged for a closer look

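The difference between AVE and other VE cells was itself compared between the KO embryo and the controls by an interaction term in edgeR's quasi-likelihood test. The KO side is a single embryo, assumed to vary like the 4 fitted controls, and it is E6.5 where 3 of those 4 are younger, so genotype, age and the single embryo cannot be told apart. Of 9102 genes 4 passed, 1 higher and 3 lower, each with an adjusted p of 0.0232, and 321 had an unadjusted p below 0.05. *Stmn2*, which encodes the microtubule regulator stathmin 2, had an interaction of 3.99 ± 0.57 (log2, SE). It stood at 30.4 CPM in AVE cells and 11.2 CPM in other VE of the KO embryo, where the controls held 0 to 4.53 and 1.81 to 23.3 CPM. The basement membrane genes *Sparc* and *Lamb1*, both on the parietal endoderm list, had interactions of -2.46 ± 0.36 and -2.45 ± 0.34. *Sparc* stood at 423 CPM in AVE cells of the KO embryo, below the 521 to 681 CPM of the 4 fitted controls. In other VE it stood at 1820.0 CPM in the KO embryo and 316 to 762 CPM in the fitted controls. E6.0 control 2, which was not fitted, held 380.0 CPM in AVE cells and 1174 CPM in other VE. The parietal list of 7 genes summed to 4031 CPM in other VE of the KO embryo and to 678 to 2323 CPM in controls, and its part in the result was not tested. *Nog*, the BMP inhibitor noggin, had an interaction of -5.50 ± 0.78, at 3.12 CPM in AVE cells and 40.2 CPM in other VE of the KO embryo. The controls held 0 to 70.2 CPM in AVE cells, a range that includes the KO value, and 0.316 to 14.4 CPM in other VE.

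In 7 of the 80 values checked over the 5 controls, 1 embryo stood apart from the other four by Dixon's criterion, which chance meets in about 1 in 20 groups. *Lefty1* was 385 CPM in E6.0 control 1, with the next embryo at 76.0 CPM. *Rac1* was 385 CPM in the E6.5 control, with the next at 124 CPM, and other VE and the remaining cells of that library were also high, at 405 and 408 CPM. *Mcm2* was 117 CPM in E6.0 control 1. The other 4 values were single genes close to 0 in AVE cells: *Fst* at 7.98 CPM in E6.0 control 1, *S100a6* at 4.02 and *Fabp3* at 1.01 CPM in the E6.5 control, and *Gm2373* at 2.44 CPM in E6.0 control 3, which is 1 UMI there.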

How the results depend on the processing

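The count of genes that differed between AVE and other VE cells was 2831 of 9102 tested. In cells thinned to 10000 UMIs it was 1498 of 6658, in 4 embryos. Under the other alternatives that kept the pairing, embryos left out in turn aside, it lay within 1.5 times of 2831. It went from 2341 of 9150 in control embryos only to 3744 of 20168 without a filter on low counts. The sets of genes tested differ, so these counts are not shares of 1 set. Control embryos only is the same fit as leaving out the KO embryo. At least 20 cells per embryo is the same fit as leaving out E6.0 control 3. Leaving out each embryo in turn gave 2002 to 2891 calls. Without the embryo as a replicate block, 1262 genes passed. The pairing is given by the design, since both populations come from the same embryo. The requirement that *Cer1*, *Hhex* and *Lefty1* all be detected could not be fitted, because only E6.0 control 1 had 10 such cells. Between genotypes, the count of 0 became 3 without a filter and 0 to 3 when each control was left out, and was 0 in the other alternatives. The difference in AVE share between the KO embryo and controls, 2.33 percentage points, turned to -1.87 within experiment 8 and was 5.57 for AVE cells with *Amn* and other VE cells with at least 2 of the visceral endoderm genes. When each control was left out it was 0.680 to 3.79.

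A set of 73 genes was followed through the alternatives, which leaves out other list genes, among them *Afp*, *Ctsz* and *Cldn4*. Of the 69 in this set that passed the test, 54 kept their direction and side of the threshold in all 19 alternatives in which they could be tested. Some of the 19 are the same fit under another name, as given above. Among the 73, the direction of 4 genes, of which only *Pou5f1* had passed the test, turned in some alternatives. List genes outside the 73, such as *Utf1*, are not in this count. In those stricter populations, *Pou5f1* was 0.13, *Gata4* -0.16 and *Apoe* -0.13. Without epiblast-dominated cells these were 0.19, -0.22 and -0.0958. With at least 6 *Amn* UMIs in both populations, a setting added after seeing the data, *Pou5f1*, *Gata4* and *Apoe* were 0.51, -0.0219 and -0.21. *Apoe* was -0.0478 in thinned cells. *Dab2* turned to 0.0617 without E6.0 control 3, which is the same fit as at least 20 cells per embryo. It was 0.0393 with at least 2 *Cer1* UMIs, 0.0146 with at most 6300 genes and 0.0877 with at least 5 cells per embryo. When each embryo was left out, *Dab2* lay between -0.28 and 0.0617. The cause was not tested. AVE cells held 236858 to 1987813 UMIs per embryo, which limits genes below a few CPM.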

Other observations

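Reporter transcripts were found in few AVE cells. An Ai14 UMI was found in 10 of 211 AVE cells (4.74%, exact 95% interval 2.30% to 8.54%), in 6.01% of other VE and in 27.8% of the remaining cells. An eGFP UMI of the *Smarcd3*-F6 transgene was found in 4 of 211 (1.90%, 0.519% to 4.78%), in 5.75% of other VE and in 11.5% of the remaining cells. The shares are pooled over 6 embryos, the intervals cover counting error only, and free RNA can give a UMI to a cell that does not express the reporter.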
